A study of Mus musculus with 19 samples.

Results

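Obstructed kidneys of 19 male mice were measured by bulk RNA-seq, and the genes described here are 49 genes of the endothelium and of blood vessel growth, taken by gene name from a count table of 54532 genes. All 49 names were found, and all 49 genes were tested in every comparison between groups. In unilateral ureteral obstruction (UUO), the left ureter is ligated, and the kidney above it loses tubules and capillaries and scars. The kidneys were removed 12 days after surgery, after perfusion with heparin, from mice aged 8 to 9 weeks on the C57BL/6J background. There were 4 groups, which were CD5L knockout (CD5L KO) mice given PBS (4 kidneys), CD5L KO mice given recombinant CD5L (rCD5L, 5 kidneys), wild-type (WT) mice given PBS (5 kidneys) and WT mice given rCD5L (5 kidneys), with 0.5 mg of rCD5L per mouse injected into the abdomen each day. CD5L, also called AIM, is a blood protein made by macrophages. WT mice make their own CD5L, so that rCD5L was added to it in 1 genotype and replaced it in the other, and every mouse kept its other, unobstructed kidney. The sources used here do not say whether the WT and CD5L KO mice were littermates, and the labels name no batch, animal pool or sequencing date.

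Endothelial cells line all vessels of the kidney, from the arteries through the glomerular and peritubular capillaries to the veins. They respond to vascular endothelial growth factors (VEGFs), which in the kidney come largely from podocytes and tubules and act on the receptors Kdr, Flt1 and Flt4 with the co-receptors Nrp1 and Nrp2. Angiopoietins act on the receptor Tek, where Angpt1 steadies vessels and Angpt2 mostly opposes it, while Tie1 and the phosphatase Ptprb set how strongly Tek signals. Cdh5 (VE-cadherin) and Pecam1 hold neighbouring cells together, and the factors Erg, Fli1 and Ets1 of the ETS family, with those of the SOX family, keep the endothelial genes on. Loss of peritubular capillaries is a known part of kidney fibrosis.

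Kidneys had total counts of 17917491 to 23847090. Cd5l, the gene deleted in the knockout, had 0 counts in all 9 CD5L KO kidneys, which allows up to 3 counts each, and 3 to 15 counts in the 10 WT kidneys. A pair of kidneys in the group CD5L KO given rCD5L stood apart. In replicate 4, 7 marker genes of the proximal tubule summed to 12496 CPM (counts scaled to the size of the library), against 1467 to 2850 in the other 18 kidneys, with low sums for macrophages (453 CPM) and fibroblasts (1234 CPM). In replicate 3, the 49 genes deviated from their group medians along GC content (Spearman's rho of 0.80 over 49 genes, a description without a test), and the non-coding RNAs CT010467.1, Gm23935 and Rn7sk summed to 10724 CPM, against 447 to 4025 in the other 18 kidneys. Counts of genes that passed in comparisons with these kidneys are given with and without them. As for the labelled tissue, all of 7 proximal tubule and 6 podocyte markers of kidney were above 0 in every group.

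Per length, the 49 genes spanned a wide range of levels. Plvap, which forms the diaphragms of fenestrated capillaries, was the highest at a mean of 88.6 FPKM over the 19 kidneys, ahead of the TGF-beta co-receptor Eng (endoglin) at 41.5 FPKM. Icam1 (24.4 FPKM), Vegfa (23.1 FPKM), Pecam1 (22.3 FPKM) and Ephb4 (21.9 FPKM) came next. Among the VEGF receptors, Nrp1 was at 13.5 FPKM, Nrp2 at 5.79, Kdr at 5.55, Flt1 at 3.45 and Flt4 at 2.91 FPKM. Vegfb lay at 14.4 FPKM and Vegfc at 2.08 FPKM. Angpt2 (6.52 FPKM) was above Angpt1 (2.32 FPKM), and Tek (10 FPKM) was close to Tie1 (11.5 FPKM). The adhesion molecules of activated vessels were rare apart from Icam1, with Selp at 0.555 FPKM and Sele, the lowest of all, at 0.21 FPKM.

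Endothelial genes were lower in CD5L KO than in WT kidneys of mice given PBS. Of the 49 genes, 19 passed edgeR's quasi-likelihood test at an adjusted p of 0.05, all 19 of them lower in CD5L KO kidneys and 0 higher. The 19 made up 38.8% of the 49, where 10.5% of the 17579 genes tested passed in either direction and 5.40% passed as lower. A further 23 of the 49 genes were lower without passing, so that 42 of 49 were lower in all, and the median log2 fold change of the 49 was -0.25, against -0.00 over all genes tested. In 13 of the 49 genes (26.5%) every CD5L KO kidney lay below every WT kidney, which held for 6.74% of all genes tested. Bulk RNA cannot tell fewer endothelial cells from less of these RNAs per cell.

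**Figure D1:**
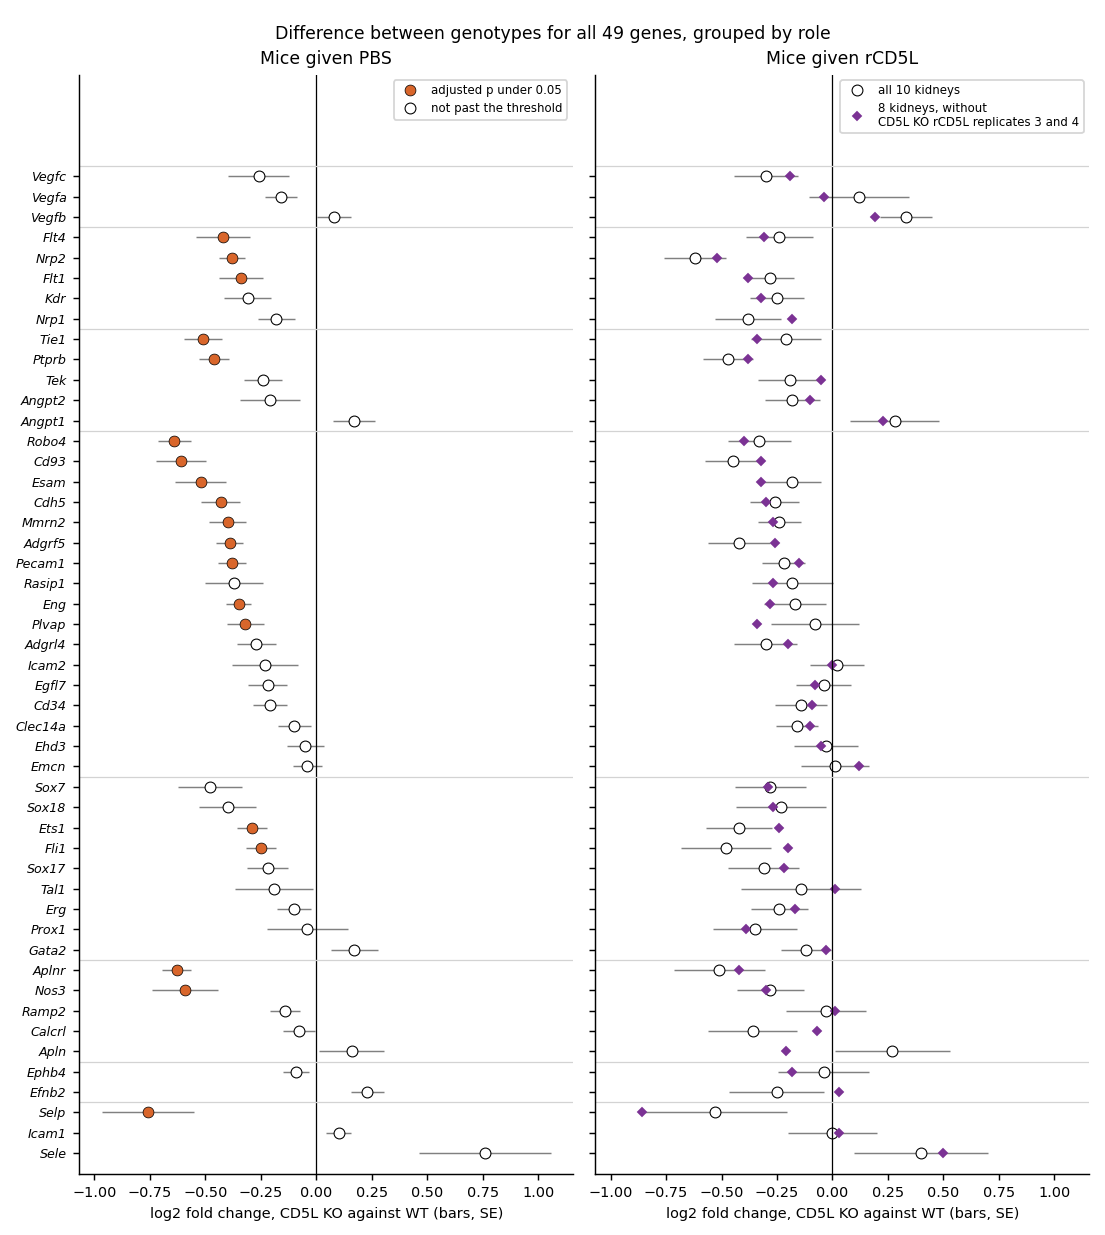
Log2 fold change of CD5L KO against WT (x axis, bars are standard errors derived from edgeR's F statistic) for each of the 49 genes (rows, grouped by role), in mice given PBS on the left and in mice given rCD5L on the right. Orange points passed an adjusted p of 0.05, which 19 genes did on the left and 0 on the right, and purple diamonds leave out replicates 3 and 4 of CD5L KO mice given rCD5L.

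Of the VEGF genes, 3 receptors or co-receptors fell and no ligand passed. All 5 receptors and co-receptors had lower values in CD5L KO kidneys given PBS, and 3 of 5 (Flt1, Flt4 and Nrp2) passed, while 0 of the 3 ligands did. The calls of Flt4 and Flt1 were lost in 14 and 12 of 22 alternative settings. Nrp2 (chromosome 1, 62703285 to 62818695 of GRCm38), a co-receptor for VEGF and semaphorins in veins and lymphatics, was at 72.3, 72.2, 69.8 and 68 CPM in the CD5L KO kidneys and at 86, 99.4, 84.7, 96.4 and 91.2 CPM in the WT kidneys. All CD5L KO kidneys were below all WT kidneys, and Nrp2 fell by 23.3% (log2 fold change -0.38 ± 0.0592 SE, edgeR adjusted p = 0.0053). Flt1, which binds Vegfa tightly and also exists as a soluble trap for it, was at 45.6, 49.9, 59.2 and 49.3 CPM in CD5L KO and 53, 67.8, 70.8, 71.7 and 58.5 CPM in WT kidneys. The groups overlapped in 1 CD5L KO kidney, and Flt1 fell by 21.2% (edgeR adjusted p = 0.0451). Kdr, the main signalling receptor for Vegfa, was at 53.5, 62.8, 41.8 and 49.9 CPM in CD5L KO and 64.3, 58.5, 60.5, 73.7 and 63.7 CPM in WT kidneys. That is a log2 fold change of -0.31 ± 0.105 (SE), close in size to that of Flt1, but it did not pass this test (edgeR adjusted p = 0.0817), though DESeq2 called it. Flt4, the receptor for Vegfc in lymphatic vessels, fell by 25.3% (edgeR adjusted p = 0.0448), and Nrp1 had a log2 fold change of -0.18 ± 0.0851 (SE) without passing.

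Vegfa was at 106, 109, 115 and 121 CPM in the CD5L KO and 110, 121, 132, 142 and 123 CPM in the WT kidneys, with 2 CD5L KO kidneys below the lowest WT kidney. Its log2 fold change of -0.16 ± 0.0725 (SE) did not pass (edgeR adjusted p = 0.171). Vegfc, which drives lymphatic growth through Flt4, was at 5.14, 5.19, 4.75 and 5.37 CPM in CD5L KO and 7.25, 5.36, 5.91, 6.76 and 5.2 CPM in WT kidneys, and these values also did not pass (edgeR adjusted p = 0.253). Vegfb had the only positive log2 fold change of the ligands, at 0.08 ± 0.0763 (SE).

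Of the angiopoietin and Tie genes, Tie1 and Ptprb fell, and the other 3 did not pass. Tie1 (chromosome 4, 118471191 to 118490061), a partner of Tek without a known high-affinity ligand of its own, was at 53.6, 60.2, 57.7 and 51.7 CPM in CD5L KO and 68.8, 87.2, 75.1, 91.6 and 73.4 CPM in WT kidneys. The groups did not overlap, and Tie1 fell by 29.9% (log2 fold change -0.51 ± 0.0866 SE, edgeR adjusted p = 0.00643). Ptprb (chromosome 10, 116275523 to 116389535), the endothelial phosphatase VE-PTP that removes phosphate from Tek and Cdh5, was at 64.6, 75, 69.9 and 71.3 CPM in CD5L KO and 94, 91.8, 96.8, 110 and 89.5 CPM in WT kidneys. These groups did not overlap either, and Ptprb fell by 27.5% (edgeR adjusted p = 0.00497). Tek itself was at 50.4, 64.2, 46.1 and 53.5 CPM in CD5L KO and 62.9, 60, 61.8, 68.8 and 62.6 CPM in WT kidneys, with 3 CD5L KO kidneys below all WT kidneys and 1 inside the WT range (edgeR adjusted p = 0.0903). Angpt2, stored in endothelial cells and released on activation, was at 32.1, 29.5, 38.4 and 23.6 CPM against 30.6, 40, 38.8, 40 and 29.1 CPM in WT, and Angpt1, made by pericytes and other stromal cells, at 15.1, 17.7, 15.8 and 15.5 CPM against 14.6, 13.9, 15.6, 11.8 and 15.1 CPM. Both angiopoietins overlapped between the groups, with log2 fold changes of opposite sign (-0.21 ± 0.136 and 0.17 ± 0.095, SE), and neither passed.

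The junction and surface genes were the largest class. All 17 had lower values in CD5L KO kidneys given PBS, 9 passed, and their median log2 fold change was -0.35. Pecam1 (chromosome 11, 106654217 to 106750628), the adhesion molecule CD31 that is used to stain vessels, was at 153, 167, 139 and 159 CPM in CD5L KO and 201, 216, 191, 201 and 191 CPM in WT kidneys. Cdh5 (chromosome 8, 104101625 to 104144511), the cadherin of endothelial junctions, was at 76.8, 85.5, 88.2 and 80.4 CPM in CD5L KO and 97.6, 130, 107, 121 and 98.6 CPM in WT kidneys. Neither gene overlapped between the groups, and they fell by 23.2% (edgeR adjusted p = 0.00652) and 25.8% (edgeR adjusted p = 0.011). Robo4 (chromosome 9, 37401897 to 37415115), a roundabout receptor that stabilizes endothelial barriers, was at 30.2, 35.5, 30.2 and 30.8 CPM in CD5L KO and 49.6, 51, 44.7, 53.6 and 46.3 CPM in WT kidneys. It had the largest fall of this class, by 35.7% (log2 fold change -0.64 ± 0.0732 SE, edgeR adjusted p = 0.00464), with no overlap. Cd93 (chromosome 2, 148436640 to 148443563), a surface lectin that binds the matrix protein made from Mmrn2, was at 65.6, 72.4, 61.3 and 60.7 CPM in CD5L KO and 86.3, 114, 79.8, 117 and 96.4 CPM in WT kidneys. Cd93 fell by 34.4% (edgeR adjusted p = 0.00774) and Mmrn2 by 24% (edgeR adjusted p = 0.0115), both without overlap.

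Adgrf5 (chromosome 17, 43360451 to 43459557), an adhesion G protein-coupled receptor of capillary endothelium, was at 146, 159, 133 and 147 CPM in CD5L KO and 184, 190, 185, 202 and 196 CPM in WT kidneys. Eng (chromosome 2, 32646595 to 32682669) was at 157, 177, 183 and 165 CPM in CD5L KO and 212, 226, 219, 221 and 205 CPM in WT kidneys. Both were separate between the groups, and Adgrf5 fell by 23.9% while Eng fell by 21.5% (edgeR adjusted p = 0.00526 and 0.00604). Plvap was at 163, 179, 209 and 166 CPM in CD5L KO and 226, 214, 253, 221 and 203 CPM in WT kidneys, with 1 CD5L KO kidney inside the WT range. It fell by 20.1% (edgeR adjusted p = 0.0278), and Esam, a tight junction adhesion molecule, fell by 30.1% (edgeR adjusted p = 0.0159). The other 8 genes of the class did not pass, among them Cd34, Egfl7, Rasip1, Adgrl4, Icam2 and Clec14a. Ehd3, a marker of glomerular endothelium, was at 29.4, 37.9, 30.6 and 35.5 CPM in CD5L KO and 37.4, 33.1, 32.8, 35.6 and 32.7 CPM in WT kidneys, with interleaved values and a log2 fold change of -0.05 ± 0.0835 (SE). Emcn, a sialomucin of capillaries and veins, was likewise near 0 at -0.04 ± 0.0665 (SE). Eng overlaps Fpgs and Plvap overlaps Gtpbp3 on the opposite strand, and the sources do not say whether counting used the strand, so reads of these pairs may be mixed.

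**Figure D2:**
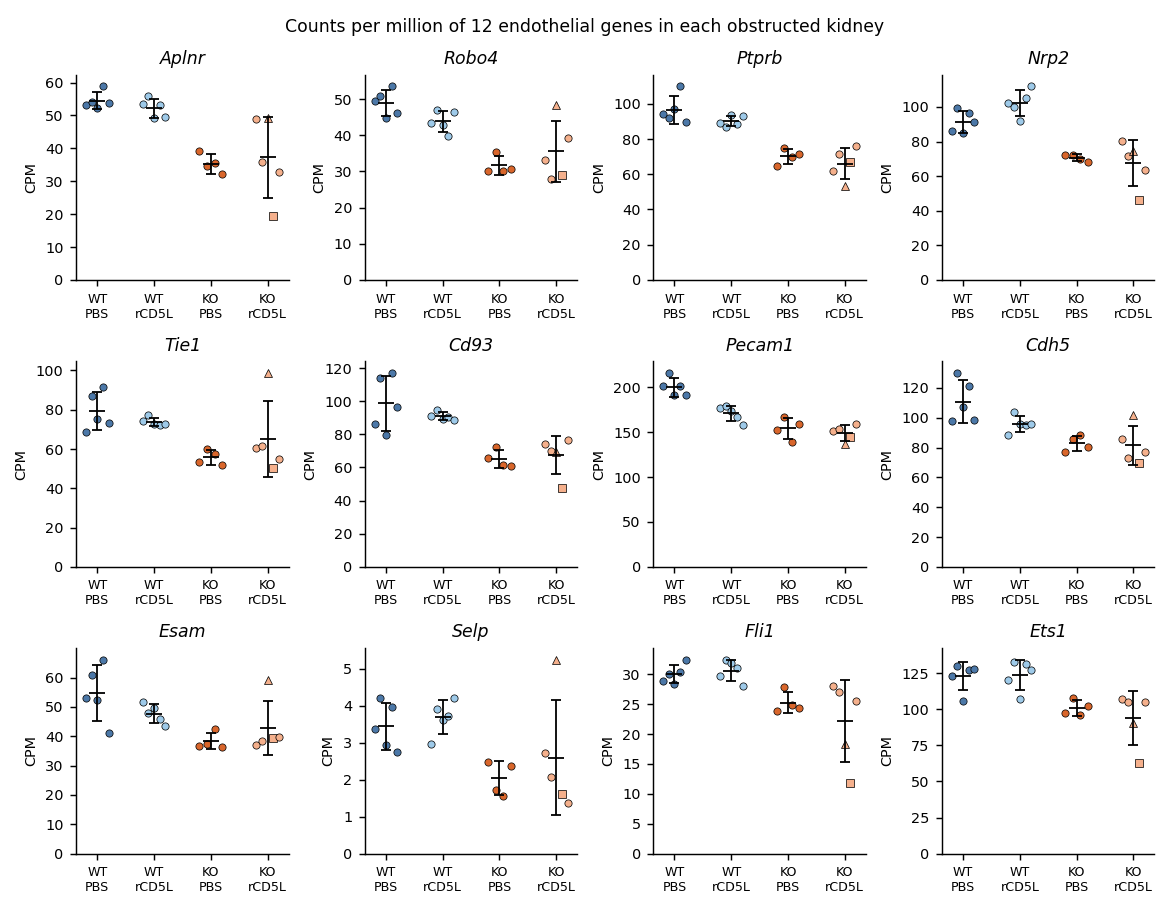
CPM (y axis) of 12 endothelial genes in each kidney (points) by group (x axis), with the mean and SD of each group as a bar. In the group CD5L KO given rCD5L, replicate 3 (triangle) is the highest kidney for Robo4, Tie1 and Cdh5 and replicate 4 (square) the lowest for Aplnr, Nrp2 and Cd93, and the 4 CD5L KO kidneys given PBS lie below all 5 WT kidneys given PBS for Aplnr, Robo4, Ptprb, Nrp2, Tie1, Cd93, Pecam1, Cdh5, Selp and Fli1.

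Among the transcription factors, Fli1 and Ets1 fell. Of 9 factors 8 had lower values in CD5L KO kidneys given PBS, and these 2 passed, Fli1 and Ets1 having fallen by 16.2% and 18.2% (edgeR adjusted p = 0.0353 and 0.0196). Both are ETS factors that are also active in blood cells, and the calls of Fli1 and Ets1 were lost in 10 and 7 of 22 alternative settings. Sox7 (log2 fold change -0.48 ± 0.143 SE, edgeR adjusted p = 0.0507) and Sox18 (-0.40 ± 0.128 SE, edgeR adjusted p = 0.0682) had larger differences that did not pass this test, though DESeq2 called both. Erg, the ETS factor most restricted to endothelium, had a log2 fold change of -0.10 ± 0.0766 (SE), and Prox1, the factor of lymphatic identity, -0.04 ± 0.182 (SE). Gata2 was the only factor with a positive value, at 0.17 ± 0.106 (SE).

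Among the vasoactive genes, the apelin receptor and the nitric oxide synthase fell. Aplnr (chromosome 2, 85136225 to 85139923), which marks veins and growing capillaries and relaxes vessels on binding apelin, was at 39.2, 34.5, 35.4 and 32.1 CPM in CD5L KO and 53.2, 54, 52.2, 58.9 and 53.8 CPM in WT kidneys. The groups lay wide apart, and Aplnr had the smallest p-value of the 49 genes (fell by 35.4%, log2 fold change -0.63 ± 0.0661 SE, edgeR adjusted p = 0.00464). Nos3, the endothelial nitric oxide synthase, fell by 33.7% (edgeR adjusted p = 0.0262), with 3 CD5L KO kidneys below all WT kidneys. It overlaps Atg9b on the opposite strand (658 counts in all, against 5612 of Nos3), and reads of the pair cannot be told apart without strand. Apln, the ligand of Aplnr, had a log2 fold change of 0.16 ± 0.147 (SE), and the adrenomedullin receptor genes Calcrl and Ramp2 had -0.08 ± 0.0722 and -0.14 ± 0.0679 (SE). None of these 3 passed.

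Of the leukocyte adhesion genes and the artery-vein pair, Selp alone passed the edgeR test. Selp, the P-selectin stored in endothelial and platelet granules, was at 2.48, 1.73, 1.57 and 2.38 CPM in CD5L KO and 3.36, 4.2, 2.93, 3.97 and 2.76 CPM in WT kidneys, without overlap, and had the largest fall of all 49 genes, by 41.1% (log2 fold change -0.76 ± 0.208 SE, edgeR adjusted p = 0.0364). Sele, the E-selectin that inflamed endothelium makes, was at 1.04, 1.12, 0.657 and 1.19 CPM against 0.84, 0.541, 0.567, 0.376 and 0.598 CPM in WT, a log2 fold change of the opposite sign (0.76 ± 0.297 SE) that did not pass (edgeR adjusted p = 0.124). Both selectins were at a few CPM or less. Icam1, an adhesion molecule of many cell types, was at 138, 122, 132 and 139 CPM in CD5L KO and 127, 118, 120, 120 and 129 CPM in WT kidneys (edgeR adjusted p = 0.277). Efnb2, the ligand on arterial endothelium, was at 68.8, 68.5, 68.1 and 82.8 CPM against 63.4, 58.7, 55.2, 63.2 and 65.2 CPM in WT. All CD5L KO kidneys were above all WT kidneys, yet Efnb2 did not pass this test (log2 fold change 0.23 ± 0.074 SE, edgeR adjusted p = 0.069), though DESeq2 called it higher. Its receptor on veins, Ephb4, had a log2 fold change of -0.09 ± 0.0581 (SE).

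**Figure D3:**
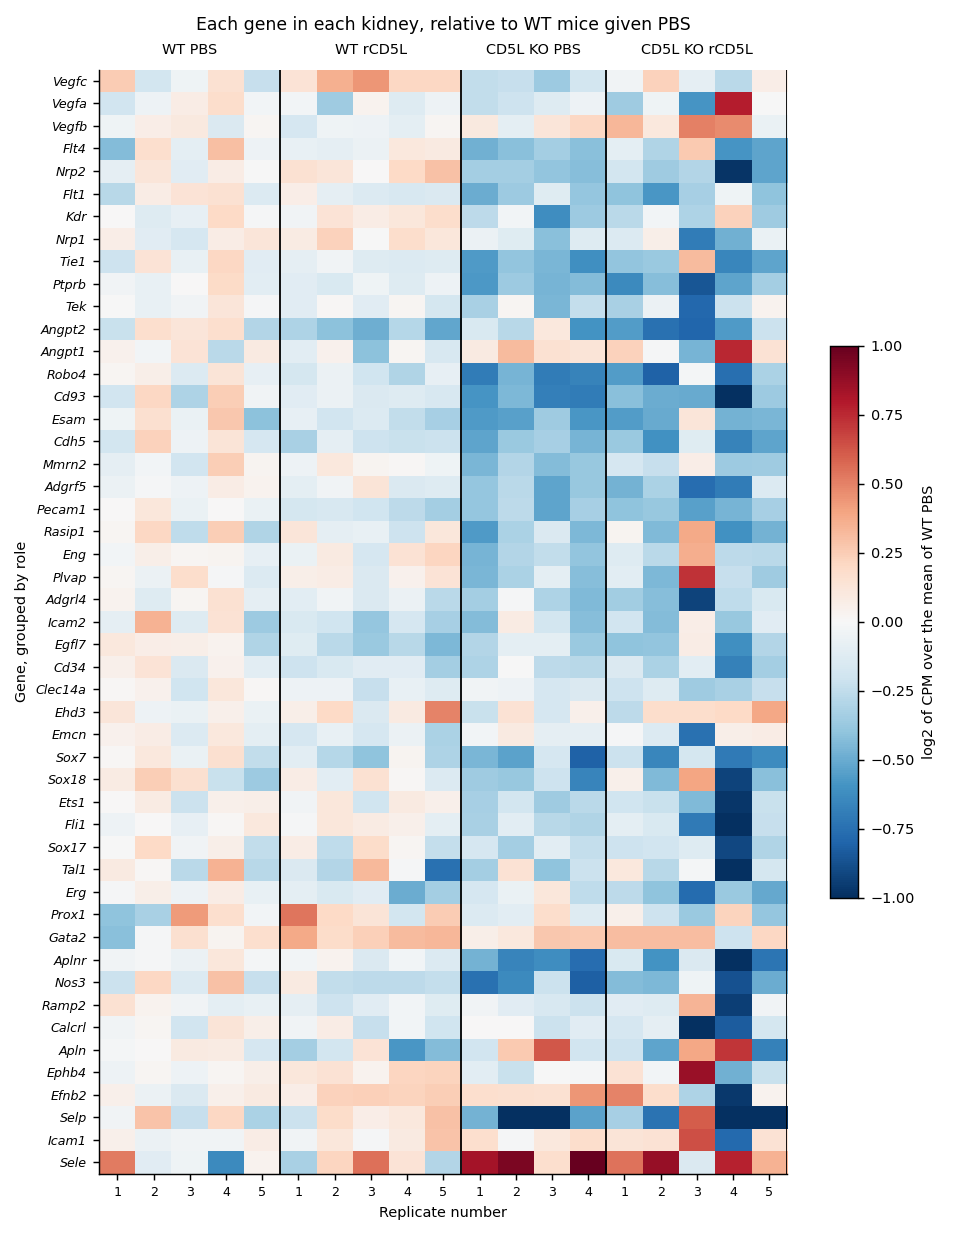
Log2 of the CPM of each of the 49 genes (rows, grouped by role) in each of the 19 kidneys (columns) over the gene's mean in WT mice given PBS, with blue below and red above it and colours saturated at -1 and 1. The 4 columns of CD5L KO given PBS are blue in most rows, as 42 of 49 genes had lower values there, and columns 3 and 4 of CD5L KO given rCD5L differ from the other 3 of that group in many rows.

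The calls differed between fits, and the cause was not tested. When all 19 kidneys entered 1 fit, 0 of the 49 genes passed and 12 of all genes did, and the biological coefficient of variation rose from 12.6% to 22.1%. The log2 fold changes hardly moved, with a median of -0.25 and 42 of 49 lower in both fits. DESeq2 on the same 9 kidneys called 24 of the 49, against 14.2% of all genes, of which 23 were lower and Efnb2 higher, with Kdr, Adgrl4, Sox7 and Sox18 added to the 19. Without replicate 4 of WT given PBS edgeR called 12 (24.5%, against 5.81%). Aplnr, Robo4, Ptprb, Adgrf5, Nrp2, Tie1, Pecam1, Cd93, Cdh5, Esam and Mmrn2 (11 genes) passed under every setting tried except the fit of the 4 groups in 19 kidneys.

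Other measured differences between these groups stood beside this one. Gene length tracked the genotype difference across all 17579 genes (Spearman's rho of -0.28, across genes that are not independent) but hardly among the 49 (-0.03), with -0.19 and -0.21 for GC content, and the median gene was 4571 bases long among the 49 and 3808 bases long among all genes. With an offset for gene length, 17 of the 49 passed as lower (34.7%, against 3.54% of all genes) and 1 as higher (Efnb2), with a median of -0.23. CT010467.1, Gm23935 and Rn7sk summed to 935 to 4025 CPM in CD5L KO and 447 to 715 CPM in WT kidneys given PBS, and all 3 passed as higher. The endothelial marker sum, of 6 genes (Pecam1, Cdh5, Kdr, Tie1, Emcn and Egfl7) that are all among the 49 and so no separate measure, was 492 to 553 CPM in CD5L KO and 582 to 678 in WT. Among the other cell types, the fibroblast sum was 2690 to 3636 CPM in CD5L KO and 3856 to 5883 in WT, and the podocyte sum 549 to 635 and 621 to 726. The pericyte and smooth muscle sum was 679 to 947 CPM in CD5L KO and 886 to 1299 in WT. Fibroblasts passed as lower in 4 of 5 markers, pericytes and smooth muscle in 4 of 6 and podocytes in 1 of 6, whereas of 7 proximal tubule markers 0 passed as lower and 1 as higher, and 4 had lower values. Sums for platelets (23.3 to 37.7 CPM in CD5L KO, 23.6 to 47.2 in WT, with 1 of 5 markers at 0 in each group), macrophages (1195 to 2037 and 1323 to 1765) and T cells (23.3 to 36.8 and 18.5 to 45.8) overlapped. Of the macrophage markers 4 of 5 had lower values and 1 of 5 passed as lower, while 0 of 4 T cell markers and 0 of the 3 platelet markers tested passed. The mast cell sum was 43.1 to 47.9 CPM in CD5L KO and 50.8 to 60.2 in WT, without overlap, but only 1 of 5 markers was lower, which passed, and the median log2 fold change of the 5 was 1.15. The part of these differences in the lower endothelial genes was not tested.

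**Figure D4:**
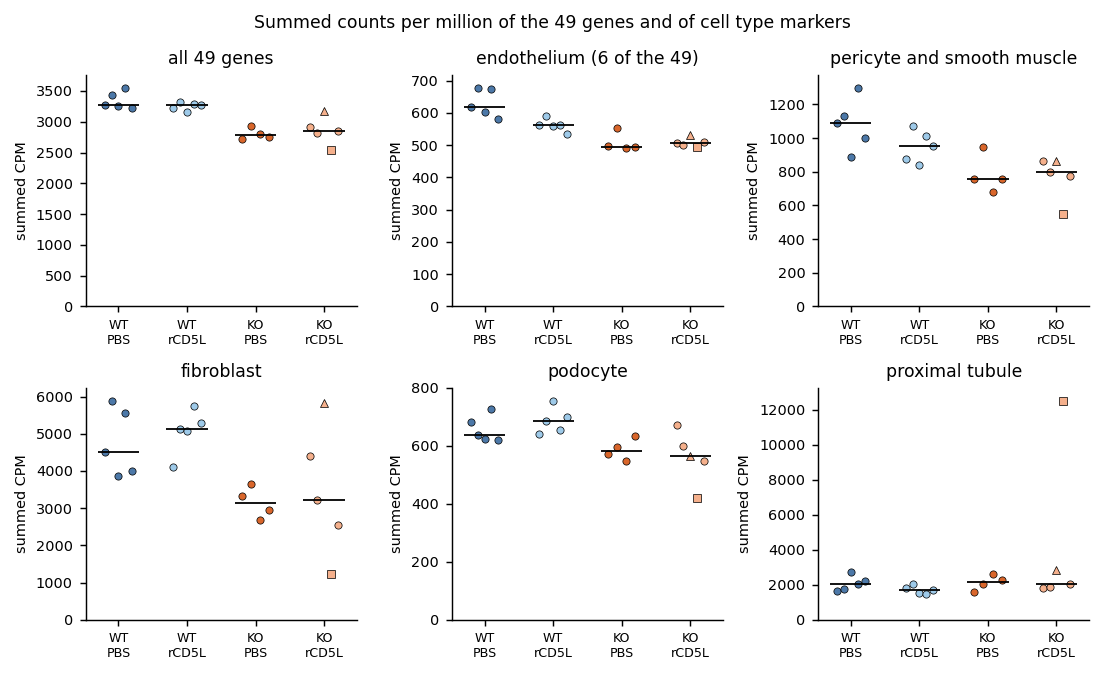
Summed CPM (y axis) of the 49 genes and of marker lists of 5 cell types in each kidney (points) by group (x axis), with lines at group medians. The endothelial sum of CD5L KO kidneys (492 to 553 CPM given PBS) lies below that of WT kidneys (582 to 678 CPM), and the square in the proximal tubule panel at 12496 CPM is replicate 4 of CD5L KO given rCD5L.

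Other vascular genes were mostly lower too in CD5L KO mice given PBS. Of 27 tested genes of the wider VEGF and angiopoietin pathway 22 were lower, 9 passed as lower and 2 as higher (median -0.19), where 50.7% of all genes were lower, 5.40% passed as lower and 10.5% passed in all. The lower genes included the Notch ligand Dll4 (23.3 ± 3.87 CPM in CD5L KO, n = 4, and 34.9 ± 3.71 in WT, SD, n = 5), its receptor Notch4, the sphingosine phosphate receptor S1pr1, the VEGF receptor effector Plcg1, the anticoagulant receptor Thbd and the von Willebrand factor Vwf. Svep1, Thbs1 and Angptl2 also passed as lower (log2 fold changes of -0.73, -0.65 and -0.57). The higher ones were Cav1 and Hspb1. The study's list of endothelial marker genes, which served to name cell types in single cells of obstructed kidneys, holds 53 genes outside the 49, of which 49 were lower and 14 passed, all lower (median -0.20), beside the same shares over all genes. Hspg2 (perlecan) was among them at 206 ± 9.33 CPM in CD5L KO (n = 4) and 289 ± 30.7 CPM in WT kidneys (SD, n = 5). By vessel type, 4 of 6 genes of a venous list passed as lower (Vwf, and Plvap, Aplnr and Selp, which are among the 19 and of which Plvap also marks fenestrated capillaries), with 1 of 8 arterial genes (Dll4), 1 of 7 lymphatic genes (Flt4) and 0 of 7 glomerular genes, whose medians were -0.39, -0.33, -0.25 and -0.10. Over all genes 5.40% passed as lower. These lists share genes with the 49, and differences between the lists were not tested. The hypoxia response, which controls Vegfa, had 0 of 14 genes past the threshold and a median of -0.02.

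The promoters of genes that fell together are shown for 4 of them, so that their ETS core letters can be compared, since Fli1 and Ets1 bind such a core. RefSeq promoter sequences (GRCm38.p6) were matched for 31 of the 49 genes, and for 8 of the 19 that passed. The 4 shown are those with the smallest p-values whose 250 bases before the start lie outside the gene as counted. Capitals mark GGAAG or, on the other strand, CTTCC, and runs of capitals are overlapping or adjoining matches.
Adgrf5 (chr17:43360181-43360430, plus strand, 5 matches): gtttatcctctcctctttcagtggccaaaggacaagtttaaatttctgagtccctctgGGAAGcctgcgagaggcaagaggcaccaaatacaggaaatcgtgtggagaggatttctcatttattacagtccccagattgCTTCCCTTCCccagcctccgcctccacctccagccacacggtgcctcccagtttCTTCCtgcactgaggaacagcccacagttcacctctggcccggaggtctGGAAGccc
Eng (chr2:32646345-32646594, plus strand, 2 matches): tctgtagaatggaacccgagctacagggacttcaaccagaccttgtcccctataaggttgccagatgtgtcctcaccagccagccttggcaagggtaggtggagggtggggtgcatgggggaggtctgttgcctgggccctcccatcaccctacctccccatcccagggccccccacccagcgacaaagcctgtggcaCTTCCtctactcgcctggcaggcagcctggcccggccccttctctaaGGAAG
Selp (chr1:164115014-164115263, plus strand, 2 matches): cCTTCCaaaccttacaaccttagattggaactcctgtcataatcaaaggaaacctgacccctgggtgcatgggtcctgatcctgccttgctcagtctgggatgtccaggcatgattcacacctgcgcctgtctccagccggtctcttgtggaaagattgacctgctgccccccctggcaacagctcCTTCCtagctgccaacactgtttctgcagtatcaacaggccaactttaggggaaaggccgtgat
Flt1 (chr5:147726012-147726261, minus strand, 3 matches): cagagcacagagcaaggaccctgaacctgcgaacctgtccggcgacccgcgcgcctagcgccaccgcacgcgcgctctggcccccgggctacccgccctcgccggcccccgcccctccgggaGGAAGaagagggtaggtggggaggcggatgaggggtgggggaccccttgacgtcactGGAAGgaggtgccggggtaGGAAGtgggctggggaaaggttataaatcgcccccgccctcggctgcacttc
GGAAG on either strand was in 7 of the 8 promoters of genes that passed (87.5%), in 22 of all 31 matched (71%) and in 63.7% of the 27025 mouse promoters of this length. The GATA motif AGATAA was in 2 of the 31 (6.45%), against 10.2% of all promoters, and the core of the hypoxia response element, ACGTG, also in 2 of the 31 (6.45%), against 16.5%. Each of these was in 0 of the 8 promoters of genes that passed. A match says only that these letters are present.

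In mice given rCD5L, which share no kidney with the comparison above, the same genes were again mostly lower in CD5L KO than in WT kidneys, but 0 of the 49 passed. In all, 41 of 49 were lower with a median of -0.23, against -0.01 over the 17360 genes tested. All 19 genes that passed with PBS were lower here too (19 of 19, median -0.28), as were 91.4% of the 945 genes called lower with PBS that were tested here. Of all genes 0.00% were called, 14 of the 49 (28.6%) had an unadjusted p under 0.05 against 17.8% of all genes, and DESeq2 called 2 of the 49 (Nrp2 and Ptprb, 4.08%, against 0.703% of all genes). With all 19 kidneys in 1 fit 6 passed (12.2%, against 7.00%), 5 lower and Vegfb higher. Gene length tracked this difference too (Spearman's rho of -0.28 across all genes and -0.41 across the 49), and with an offset for it 8 of the 49 had an unadjusted p under 0.05 (16.3%, against 14.9% of all genes) and the median was -0.16. With an offset for GC content, 19 of the 49 as lower and 1 as higher had an unadjusted p under 0.05, with a median of -0.21. Of the 17360 genes, 1408 as lower and 2535 as higher did so. Without an offset, the count at an unadjusted p under 0.05 was 26 without replicate 3 of CD5L KO, 9 without replicate 1 of CD5L KO or without replicate 1 or 3 of WT, and 7 without replicate 2 of WT. The shares of all genes in these fits are not given here, so these counts do not single out the 49. Cd93, Nrp2 and Ptprb were lower in every CD5L KO kidney than in every WT kidney, which is 6.12% of the 49 against 2.89% of all genes, and they alone among the 49 were also separate with PBS (6.12% against 1.17% of all genes tested in both). Nrp2 was at 80.4, 71.7, 74.8, 46.3 and 63.6 CPM in CD5L KO and 102, 99.7, 91.7, 105 and 112 CPM in WT kidneys given rCD5L, a log2 fold change of -0.62 ± 0.14 (SE, edgeR adjusted p = 0.259). Ptprb was at 61.9, 71.6, 53.2, 66.8 and 76 CPM against 89.3, 86.9, 93.7, 88.3 and 93.2 CPM in WT, and Cd93 at 74, 69.8, 69.5, 47.5 and 76.6 CPM against 91.1, 94.9, 89.4, 90.3 and 88.5 CPM.

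The other genes with the smallest p-values in mice given PBS overlapped between the genotypes here, in most cases through replicate 3. Robo4 was at 33.3, 28, 48.3, 29.1 and 39.3 CPM in CD5L KO and 43.5, 47.1, 42.8, 39.9 and 46.4 CPM in WT kidneys given rCD5L, with replicate 3 above all WT kidneys. Tie1 was at 60.4, 61.3, 98.7, 50.5 and 54.9 CPM against 74.5, 77.4, 72.6, 72.2 and 72.6 CPM in WT, where again replicate 3 alone was above the WT range. Cdh5 was at 85.7, 73, 102, 69.6 and 77 CPM against 88.3, 104, 96.1, 95.2 and 95.7 CPM in WT. The CD5L KO kidneys other than replicate 3 were below all WT kidneys for Robo4, Tie1 and Cdh5. Eng was at 198, 180, 279, 181 and 180 CPM in CD5L KO and 207, 230, 193, 239 and 251 CPM in WT, and Plvap at 208, 164, 369, 190 and 175 CPM against 233, 235, 202, 230 and 246 CPM. Adgrf5 was at 138, 154, 113, 118 and 174 CPM against 179, 187, 209, 173 and 175 CPM in WT, and Pecam1 at 151, 154, 137, 145 and 159 CPM against 177, 179, 174, 167 and 158 CPM. For both Adgrf5 and Pecam1, replicate 5 was the only CD5L KO kidney inside the WT range. Aplnr was at 49, 35.9, 49.1, 19.5 and 32.8 CPM in CD5L KO and 53.4, 55.8, 49.1, 53.3 and 49.4 CPM in WT kidneys, where replicate 4 was the lowest and replicate 3 alone reached the lower edge of the WT range.

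The ligands and receptors overlapped as well. Vegfa was at 98, 122, 83.3, 216 and 125 CPM in CD5L KO and 123, 98.2, 129, 115 and 121 CPM in WT kidneys given rCD5L, and Vegfc at 5.95, 7.17, 5.72, 5.06 and 6.38 CPM against 6.7, 7.79, 8.28, 7.03 and 7.03 CPM. The Vegfa value of replicate 4 was the highest of the 19 kidneys, and that of replicate 3 the lowest. Kdr was at 53.3, 62.9, 51.9, 75.2 and 50.1 CPM in CD5L KO and 62.5, 70.7, 67.5, 69.3 and 72.4 CPM in WT, Flt1 at 48.6, 43, 51.1, 62.5 and 48.8 CPM against 67.3, 60.6, 58.5, 57.7 and 58.3 CPM and Tek at 50.5, 60.7, 36.6, 54.6 and 64.8 CPM against 58.5, 63.6, 58.5, 64.1 and 56.1 CPM. For both Kdr and Flt1, replicate 4 was the highest CD5L KO kidney. Vegfb had the smallest p-value among the higher genes (log2 fold change 0.33 ± 0.117 SE, edgeR adjusted p = 0.259), and Sele and Angpt1 had the other 2 of the 3 largest positive values (0.40 ± 0.302 and 0.28 ± 0.201, SE). Ehd3 was at 28.6, 38.8, 38.8, 39.5 and 44.8 CPM in CD5L KO and 35.8, 39.5, 31.1, 36.5 and 48.5 CPM in WT, and Icam1 at 134, 136, 192, 71.8 and 136 CPM against 120, 133, 122, 131 and 150 CPM. The log2 fold changes of Ehd3 and Icam1 were -0.03 ± 0.144 and 0.00 ± 0.2 (SE), within their standard errors.

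Leaving out replicates 3 and 4 of CD5L KO given rCD5L, a choice made after seeing the data, 12 of the 49 genes passed in mice given rCD5L, all lower (24.5%, against 1.95% of all genes called lower), with 24 at an unadjusted p under 0.05, against 21.5% of all genes in either direction. The 12 were Aplnr, Cd93, Cdh5, Esam, Flt1, Kdr, Mmrn2, Nrp2, Plvap, Ptprb, Robo4 and Tie1, and 11 of these had passed in mice given PBS, the exception being Kdr. The log2 fold changes over the remaining 8 kidneys were -0.52 ± 0.0819 (SE) for Nrp2, -0.42 ± 0.107 for Aplnr, -0.40 ± 0.097 for Robo4 and -0.32 ± 0.0553 for Cd93. The endothelial marker sum was 493 to 530 CPM in CD5L KO and 535 to 590 CPM in WT kidneys given rCD5L, with no overlap in all 10 kidneys. Over all 49 genes the sums were 2544 to 3181 CPM and 3164 to 3326 CPM, overlapping in replicate 3 alone. The fibroblast sums were 1234 to 5824 and 4109 to 5755 CPM, those of podocytes 419 to 671 and 642 to 755 CPM, and those of pericytes and smooth muscle 549 to 866 and 838 to 1074 CPM. Their part in the result was not tested.

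With genotype averaged over both treatments in 1 fit, also chosen after seeing the data, 18 of the 49 genes passed as lower over 19 kidneys (36.7%, against 4.78% of all genes), and 27 over the 17 kidneys without replicates 3 and 4 (55.1%, against 11.3%). Over 17 kidneys, Kdr, Nrp1, Cd34, Adgrl4, Rasip1, Sox7, Sox17 and Sox18 joined the 19 genes that passed with PBS, and Sele passed as higher. Angpt1, Angpt2, Tek, Vegfa, Vegfc, Ehd3, Emcn and Icam1 did not pass in either fit.

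For rCD5L against PBS, no member passed the edgeR test with the filter on low counts in either genotype. In CD5L KO mice 0 of the 49 passed (0.00% of 17467 genes), 1 had an unadjusted p under 0.05 (2.04%, against 2.87% of all genes), DESeq2 called 0, and 25 were lower and 24 higher with a median of -0.00. Without replicates 3 and 4, 0 passed and 4 had an unadjusted p under 0.05 (8.16%, against 9.76% of all genes). In WT mice 0 of the 49 passed (0.00% of 17455 genes) and 14 had an unadjusted p under 0.05 (28.6%, against 16.0% of all genes), of which 9 were lower and 5 higher, with a median of -0.06 over the 49. DESeq2 called 4 in WT mice (8.16%, against 2.70% of all genes), with Pecam1, Egfl7 and Angpt2 lower and Efnb2 higher, and edgeR without the filter called 1. These comparisons share the PBS and rCD5L kidneys with those between genotypes, and share none with each other.

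The single gene in CD5L KO mice was Erg (chromosome 16, 95359169 to 95586593), at 26.6, 24.1, 18.7, 24.7 and 22.4 CPM with rCD5L and 28.3, 30.4, 34.5 and 26.8 CPM with PBS. In WT mice it was at 29.8, 28.7, 29.4, 22.6 and 25.2 CPM with rCD5L and 31.6, 33.2, 30.8, 33.6 and 30.2 CPM with PBS. In both genotypes every kidney given rCD5L was below every kidney given PBS, which held for 3 of the 17124 genes tested in both (0.0175%), and Erg was picked out here after its values were seen. The log2 fold changes were -0.37 ± 0.134 (SE, edgeR adjusted p = 0.897) in CD5L KO and -0.22 ± 0.0775 (SE, edgeR adjusted p = 0.186) in WT mice, so that neither passed, and without replicates 3 and 4 the value in CD5L KO mice was -0.30 ± 0.101 (SE). Angpt2 was at 24.3, 21.3, 20.6, 24.1 and 30.7 CPM with rCD5L in CD5L KO and 28.8, 26.9, 25.4, 29.3 and 24.9 CPM in WT mice, of which 2 CD5L KO and 4 WT kidneys were below all kidneys of their genotype given PBS, with log2 fold changes of -0.36 ± 0.169 and -0.39 ± 0.0958 (SE, edgeR adjusted p = 0.897 and 0.113). Averaged over both genotypes in 1 fit, chosen after seeing the data, 0 of the 49 passed over 19 kidneys (0.00% of all genes), and Erg, Angpt2 and Egfl7 passed as lower over 17 kidneys (6.12%, against 2.71% of all genes).

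**Figure D5:**
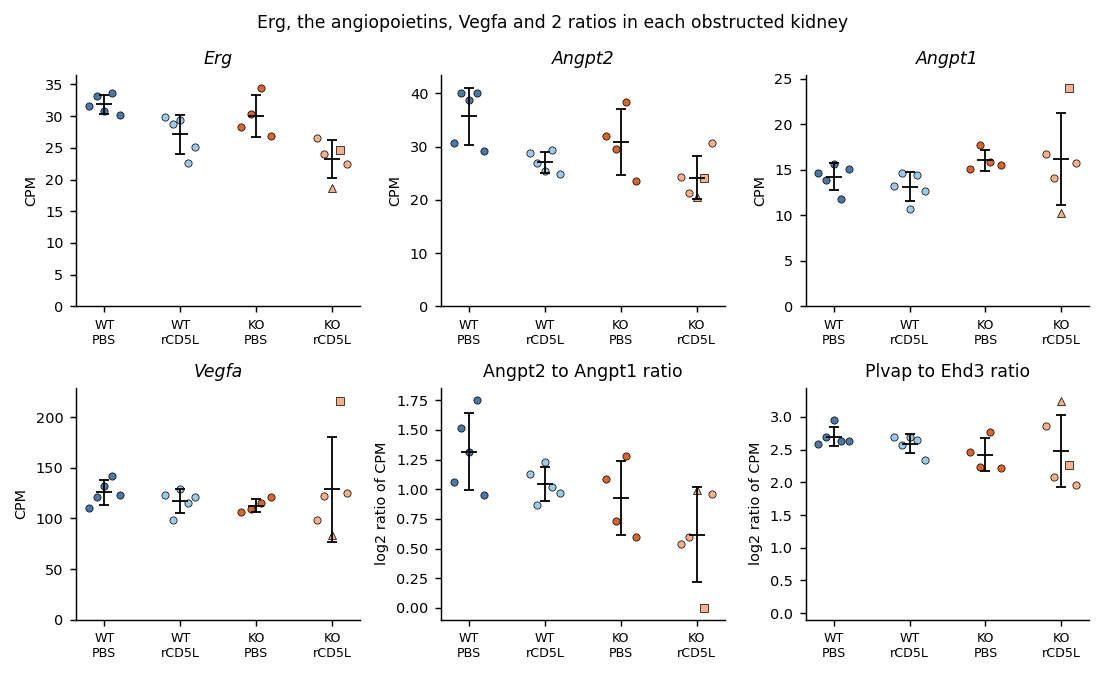
CPM (y axis) of Erg, Angpt2, Angpt1 and Vegfa and the log2 ratios of CPM of 2 gene pairs in each kidney (points) by group (x axis), with the mean and SD of each group. Erg in kidneys given rCD5L lies below Erg in kidneys given PBS of the same genotype, and the square (replicate 4 of CD5L KO given rCD5L) is highest for Vegfa and lowest for the Angpt2 to Angpt1 ratio.

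In WT mice, Pecam1 had the smallest p-value of the 49, at 177, 179, 174, 167 and 158 CPM with rCD5L against 201, 216, 191, 201 and 191 CPM with PBS. The groups did not overlap, and the log2 fold change was -0.22 ± 0.0511 (SE, edgeR adjusted p = 0.107). In CD5L KO mice it was -0.06 ± 0.114 (SE). Egfl7, a secreted endothelial protein whose gene overlaps Agpat2 on the opposite strand, had -0.28 ± 0.0786 (SE) in WT mice, and Apln had -0.25 ± 0.116 (SE). The largest positive values in WT mice were those of Gata2 (0.30 ± 0.0937), Vegfc (0.28 ± 0.124) and Prox1 (0.22 ± 0.179, SE), none of which passed. Efnb2 and Ephb4 had 0.21 ± 0.0556 and 0.16 ± 0.0487 (SE) in WT mice. In CD5L KO mice, the other largest values were -0.35 ± 0.22 for Calcrl, 0.34 ± 0.389 for Selp, 0.29 ± 0.231 for Plvap and 0.24 ± 0.155 for Eng (SE). Replicate 3 was the highest CD5L KO kidney for Selp, Plvap and Eng, and without replicates 3 and 4 their values were 0.01, 0.03 and 0.13, and that of Calcrl was -0.06. Apln then had the largest value, at -0.62 ± 0.196 (SE), against -0.14 with all kidneys, and did not pass.

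Genes of endothelial tip cells, which lead new sprouts, had mostly lower values with rCD5L in both genotypes, without passing. Of this list of 7 (Apln, Esm1, Angpt2, Kcne3, Cxcr4, Pgf and Dll4), 7 of 7 were lower in WT mice (median -0.39) and 7 of 7 in CD5L KO mice (median -0.26), while of all genes 48.7% and 46.5% were lower, with medians of 0.00 and 0.02. Without replicates 3 and 4, 6 of 7 were lower in CD5L KO mice (median -0.17), with Dll4 higher, against 49% of all genes. None of the 7 passed in either genotype, and in CD5L KO mice only Angpt2 (-0.36 ± 0.169) and Cxcr4 (-0.39 ± 0.298) lay beyond their standard errors. With rCD5L in WT mice, 5 of the 6 endothelial markers were lower as well (median -0.17). The tip cell list was also mostly lower in CD5L KO than in WT mice. Given PBS 6 of 7 were lower (median -0.21), and given rCD5L 5 of 7 (median -0.29). Esm1, a proteoglycan secreted by tip cells, was at 37.6 ± 5.23 CPM with rCD5L and 53.2 ± 4.18 CPM with PBS in WT mice (SD, n = 5 each, edgeR adjusted p = 0.0952), and at 41 ± 18 CPM (n = 5) and 48.9 ± 4.27 CPM (n = 4) in CD5L KO mice. The list shares Apln and Angpt2 with the 49 genes, and Angpt2 overlaps Mcph1 on the opposite strand.

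The interaction of genotype and rCD5L passed for 0 of the 49 genes (0.00% of 18454 genes), and 0 of the 49 had an unadjusted p under 0.05, against 6.25% of all genes. DESeq2 also called 0, and without replicates 3 and 4 edgeR called 0, with 2 at an unadjusted p under 0.05 (4.08%, against 4.96% of all genes). The most negative values were those of Efnb2 (-0.47 ± 0.246 SE, edgeR adjusted p = 0.731), Sele (-0.35 ± 0.405) and Prox1 (-0.29 ± 0.258), and the most positive those of Esam (0.35 ± 0.188), Nos3 (0.33 ± 0.221) and Robo4 (0.33 ± 0.173). Without replicates 3 and 4 these values were -0.19, -0.26 and -0.34, and 0.20, 0.30 and 0.24. Standard errors of the interaction ranged from 0.106 to 0.41 over the 49 genes, so that a missing call does not show equal responses in the 2 genotypes.

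A pair of ratios within a kidney was compared with two-sided exact permutation tests, adjusted over 8 comparisons. The log2 ratio of Angpt2 to Angpt1, in which a higher value means more of the antagonist, was 0.93 ± 0.311 (SD, n = 4) in CD5L KO and 1.32 ± 0.329 (SD, n = 5) in WT mice given PBS (exact p = 0.127, adjusted 0.254). With rCD5L it was 0.62 ± 0.4 in CD5L KO and 1.04 ± 0.14 in WT mice (SD, n = 5 each, exact permutation p = 0.0476, adjusted 0.254). The 4 comparisons of this ratio, which share their groups, had differences from -0.43 to -0.27, and none passed. Replicate 4 of CD5L KO given rCD5L had the lowest ratio of the 19 kidneys, at 0.00, and without it the difference between genotypes given rCD5L was -0.27 in place of -0.43 and that of rCD5L against PBS in CD5L KO -0.15 in place of -0.31. Without replicate 4 of WT given PBS, that of rCD5L against PBS in WT was -0.16 in place of -0.27. The log2 ratio of Plvap to Ehd3 was chosen to set peritubular against glomerular capillaries, though bulk RNA places neither gene in a vessel type. It was 2.42 ± 0.256 (SD, n = 4) in CD5L KO and 2.70 ± 0.144 (SD, n = 5) in WT mice given PBS (exact permutation p = 0.103, adjusted 0.254). It differed by -0.11 between genotypes with rCD5L, where the exact p was 0.675. The smallest p these tests could give was 0.00794.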

How the data were processed

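Total RNA of 19 obstructed kidneys (RNA integrity number of 7 or more) was reverse transcribed from random hexamers and sequenced as paired reads. The authors used Trimmomatic for trimming, HISAT2 for alignment (GRCm38) and featureCounts for counting, and they deposited whole-number counts and FPKM values (counts per length and library size). Versions and the strand setting are not given in the sources used here. Total counts per kidney ranged from 17917491 to 23847090, and no 2 kidneys of a group agreed within sampling noise. Groups came from the labels.

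Counts were tested with edgeR 4.0.16 in R 4.3.3 (quasi-likelihood F test, TMM normalization, low genes removed by filterByExpr at 10 counts). Each fit held the 2 groups it compared, and that of the interaction held all 19 kidneys. P-values were adjusted by Benjamini-Hochberg over all genes tested, at 0.05. Standard errors of log2 fold changes were derived from the F statistic, as the absolute log2 fold change over the square root of F. CPM values use TMM library sizes. FPKM served for levels between genes and, with limma 3.58.1 on log2(FPKM + 1) or log2(FPKM + 0.1), as an alternative, as did DESeq2 1.42.0, RLE factors, no filter, 10 counts in every kidney, offsets for gene length or GC content, a replicate block, a shared spread and leaving out kidneys. Log2 ratios of CPM used a prior count of 2. The scripts were tested on simulated counts.

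The members and gene lists were chosen with earlier results of these data known. Values in every kidney are given for the 10 genes with the smallest p-values between genotypes given PBS and for a fixed set of ligands, receptors and markers, and the 3 largest rises and falls of each comparison are named. Selp, Sele, Efnb2 and Erg were given in every kidney after their values were seen. P-values measure the spread between kidneys, 1 per mouse as far as the labels say.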

Additional observations from a re-analysis of the deposited data

Results flagged for a closer look

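For the 20 genes given in every kidney by the naming rule, the highest and lowest kidney of each group were compared with the rest of the group by Dixon's gap test, in 80 tests, of which 6 passed where chance gives about 4. Replicate 3 of CD5L KO given rCD5L was the highest of its group for Plvap (369 CPM, the others 164 to 208), Eng (279 CPM, the others 180 to 198) and Tie1 (98.7 CPM, the others 50.5 to 61.3). Replicate 4 of the same group was the lowest for Cd93, at 47.5 CPM against 69.5 to 76.6 CPM. Replicate 4 of WT given PBS was the highest of its group for Aplnr, at 58.9 CPM against 52.2 to 54 CPM. Replicate 2 of CD5L KO given PBS was the highest for Robo4, at 35.5 CPM against 30.2 to 30.8 CPM, and still below all WT kidneys given PBS.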

How the results depend on the processing

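For CD5L KO against WT given PBS, 0 of the 49 genes passed (12 of all genes) when all 19 kidneys entered 1 fit, against 19 in the fit of the 2 groups (1850 of all genes). Leaving out 1 kidney at a time gave 12 to 19 of the 49, and 1015 to 2062 of all genes. For CD5L KO against WT given rCD5L the count rose from 0 to 2 with DESeq2, to 6 with all 19 kidneys in 1 fit and to 12 without replicates 3 and 4 of CD5L KO given rCD5L, and that of all genes from 0 to 120, 1291 and 644. For rCD5L against PBS in WT mice it rose from 0 to 4 with DESeq2 and to 1 with no filter on low counts, and that of all genes to 471 and 137. In the separate contrast of rCD5L averaged over both genotypes in 17 kidneys, 3 of the 49 passed, and 508 of all genes. The cause was not tested. Flt4 lost its call in 14 of 22 alternatives, Flt1 in 12, Fli1 in 10, Selp in 8, Ets1 in 7, Nos3 and Plvap in 6 each and Eng in 2. No called gene changed direction in any alternative.

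Replicate numbers were tested as a block. Kidneys of the same number did not deviate together in every pair (correlations from -0.187 to 0.174). Weak correlations cannot show whether a number marks a shared day or batch, which the labels do not say. With the replicate block, 22 of the 49 genes passed in mice given PBS (21 lower, 1 higher), where 2132 of all genes did against 1850 without it, and 0 passed in each of the other comparisons. The block gave a difference of -0.48 for the Angpt2 to Angpt1 ratio between genotypes given PBS.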
